A study of Schizosaccharomyces pombe with 2 samples.

Results

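The members described here are the long terminal repeats (LTRs) of Tf retrotransposons, taken as all lines of type LTR on chromosomes 1, 2 and 3 of the genome annotation that was deposited with the series. There were 237 of them among 33839 annotation lines. The series holds 2 ChIP-seq libraries, replicates 1 and 2, made with an antibody against dimethylated lysine 9 of histone H3 (H3K9me2) from fission yeast cells (Schizosaccharomyces pombe) that lack swi6+, grown in rich YES medium. Both libraries have this genotype, and swi6+ encodes an HP1 protein that binds methylated H3K9. The score column of the annotation was empty in every line, so no read count or enrichment could be set beside an LTR, the depth of the libraries is unknown here, and no samples were compared. The values below are positions, lengths and counts over the whole annotation. They have no replicate error and no test between groups was made. Sequences were read from the RefSeq sequence ASM294v3, whose 3 chromosomes have the same lengths as in the annotation (5579133, 4539804 and 2452883 bp). Of the 237 LTRs, 236 had the same first and last base in the RefSeq annotation, and 231 also the same strand.

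Tf1 and Tf2 are the LTR retrotransposons of fission yeast. Such an element is transcribed into RNA, copied into DNA by its own reverse transcriptase and inserted elsewhere by its integrase, which leaves a short duplication of the target sequence on both sides. A complete element has the same LTR at both ends and carries the signals that start and end its transcription there. Recombination between both LTRs of an element removes the interior and leaves a solo LTR behind. In the laboratory strain Tf2 is present as complete elements, whereas Tf1 is known from solo LTRs. Tf1 is known to insert upstream of genes transcribed by RNA polymerase II.

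The ends of the LTRs are shown first because the grouping of the members rests on them. The LTR at the start of Tf2-1 (chr1:1465332-1465680, plus strand, 349 bp) and the LTR whose note in the file carries the highest Tf1 alignment score (chr1:4897509-4897866, minus strand, 358 bp) were used as the Tf2 and the Tf1 representative. Each is given 5′ to 3′ as the first and the last 60 bases. In the Tf2-1 lines the capitals mark the terminal TG and CA, and in the Tf1 lines they mark bases that differ from Tf2-1.
Tf2-1 LTR, first 60 bases (chr1:1465332-1465391): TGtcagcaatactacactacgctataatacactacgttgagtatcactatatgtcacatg
Tf1 LTR, first 60 bases (chr1:4897807-4897866): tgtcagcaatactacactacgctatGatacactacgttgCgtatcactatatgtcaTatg
Tf2-1 LTR, last 60 bases (chr1:1465621-1465680): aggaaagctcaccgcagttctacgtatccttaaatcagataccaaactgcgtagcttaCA
Tf1 LTR, last 60 bases (chr1:4897509-4897568): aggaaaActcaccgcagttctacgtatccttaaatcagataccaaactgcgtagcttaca
The ends of both LTRs were nearly alike, and over the whole length both were 85.4% identical with gaps counted and 90.1% identical without gaps. Every LTR was aligned to both representatives, and its identity is given to the one with the better score. By this measure 130 LTRs were closer to Tf2, 102 were closer to Tf1 and the rest scored equally. In 15 of the 102 and 9 of the 130 the other representative had the higher identity. In the wrong orientation the same alignment gave identities of 53.9% to 65.1% (median 57.5%), so a value up to 65.1% is not distinguishable from unrelated sequence by this measure. This held for 35 LTRs. The notes in the file named Tf1 for 72 LTRs, Tf2 for 124, both for 7 and no type for 34. Of the 72 noted as Tf1, 57 were closer to Tf1 by sequence, and of the 124 noted as Tf2, 101 were closer to Tf2.

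The LTRs had a narrow main length class. The length ranged from 75 to 412 bp with a median of 346 bp, and 191 of 237 LTRs (80.6%) were 300 to 400 bp long. A further 29 were at least 200 but under 300 bp, 13 were at least 100 but under 200 bp, 3 were under 100 bp and 1 was over 400 bp. The commonest length was 349 bp, with 40 LTRs, and all 40 were closer to Tf2. The next was 358 bp with 13 LTRs, all closer to Tf1. The 12 LTRs of 344 bp were mostly closer to Tf2 (10 LTRs). Lengths of 349 and 358 bp thus went with the type of sequence. The shortest LTR, 75 bp at chr3:1195985-1196059, was called a fragment or degraded in its note, as were the others under 100 bp (chr1:79680-79768 and chr2:3934659-3934738). The longest (412 bp, chr1:5175815-5176226) was 98.3% identical to the Tf2 LTR over the aligned part. All LTRs together covered 76038 bp, or 0.605% of the 3 chromosomes. Their median GC content was 32.9%, against 36.1% over the 3 chromosomes.

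**Figure D1:**
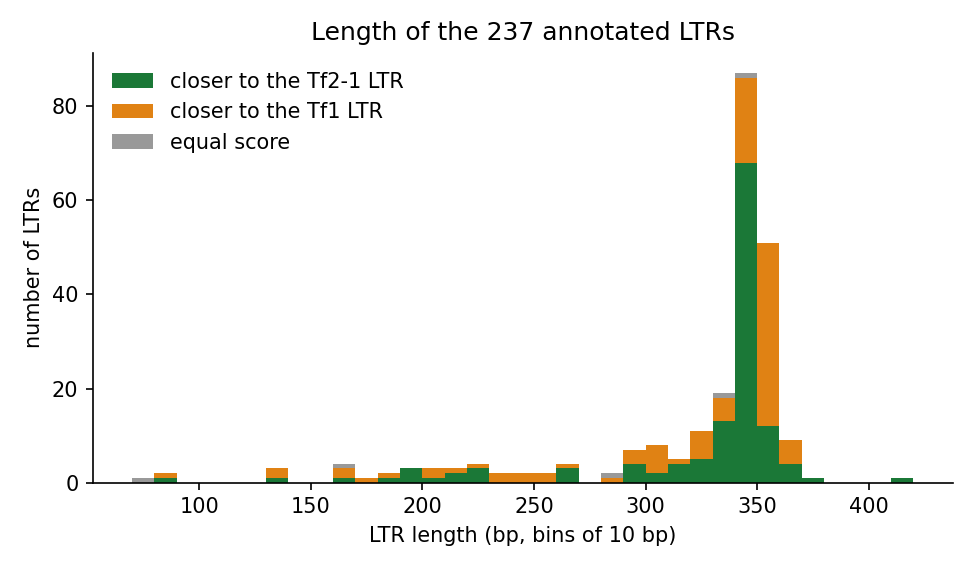
Number of LTRs (y axis) by length in bp (x axis, bins of 10 bp), stacked by the representative LTR to which the sequence was closer (green Tf2-1, orange Tf1, grey equal score). The peak between 340 and 360 bp holds the 40 LTRs of 349 bp, all closer to Tf2, and the 13 of 358 bp, all closer to Tf1.

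The LTRs were not spread evenly over the chromosomes. Chromosome 1 held 89 (37.6%), chromosome 2 held 69 (29.1%) and chromosome 3 held 79 (33.3%), while chromosome 3 makes up 19.5% of the sequence. The density was 1.60 LTRs per 100 kb on chromosome 1, 1.52 on chromosome 2 and 3.22 on chromosome 3. With the centromeres and the outer 100 kb of each arm left out, the densities were 1.37, 1.21 and 3.11, so chromosome 3 was still the densest. Both strands carried LTRs in near equal numbers on chromosomes 1 (48 plus, 41 minus) and 2 (35 plus, 34 minus), whereas chromosome 3 had 32 on the plus and 47 on the minus strand. LTRs of complete elements numbered 15 on chromosome 1, 6 on chromosome 2 and 4 on chromosome 3, or 0.269, 0.132 and 0.163 per 100 kb, so for these chromosome 1 was the densest.

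The outer 100 kb of the chromosomes were richer in LTRs than the rest. The 6 ends held 44 LTRs in 600000 bp, or 7.33 per 100 kb, against 1.63 per 100 kb in the remainder outside the centromeres. These are annotated LTRs and not separate insertions, because some lie in repeated segments. In 14 of the 44 every sequence of 50 bases occurred again in the genome. The LTRs at chr1:24581-24876 and chr2:1296-1591, for example, were identical and had the same 5 bases on each side. How many of the 44 are such copies was not tested. The left ends of chromosomes 1 and 2 held the most, with 12 and 10, and the right end of chromosome 1 and the left end of chromosome 3 the fewest, with 4 each. The LTR nearest to an end lay 996 bp from the left end of chromosome 2. Ends are those of the annotated sequence, so these values are not distances to a telomere. On the other ends the first LTR lay 8750 to 26342 bp inward. The LTRs near the ends were also shorter and more diverged. Of these 44, 25 (56.8%) were 300 to 400 bp long, against 166 of 193 (86.0%) elsewhere. Their median identity to the closer representative was 70.7%, against 81.3% for the other 193, and 1 of 44 was at least 95% identical, against 68 of 193 (35.2%).

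No LTR was annotated inside a centromere, the span of the annotated centromeric repeats. Heterochromatin marked by H3K9 methylation forms on these repeats, and the study asked how far it reaches in cells without Swi6. On chromosome 1 the nearest LTRs lay 167263 bp to the left (chr1:3586218-3586423) and 134806 bp to the right (chr1:3924228-3924580) of the repeats. On chromosome 2 they lay 70740 bp to the left (chr2:1532619-1532951) and 161024 bp to the right (chr2:1805772-1806127). On chromosome 3 they lay 111972 bp to the left (chr3:958713-958931) and 39246 bp to the right (chr3:1176250-1176592). None of these 6 LTRs belonged to a complete element. Their identities to the closer representative ranged from 58.2% to 81.3%, so none was a near copy. The value of 58.2%, at chr1:3586218-3586423, is within the range given by unrelated sequence.

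**Figure D2:**
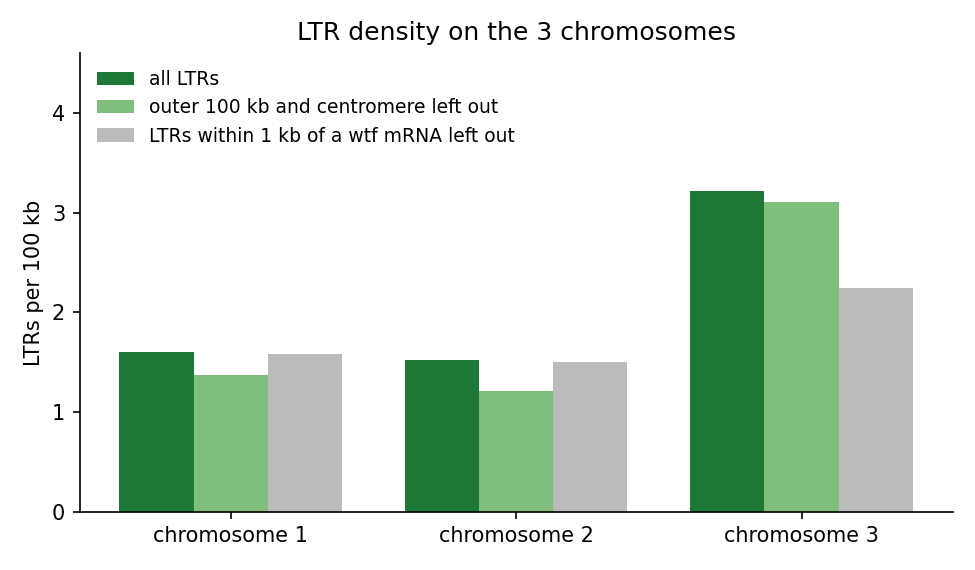
LTRs per 100 kb (y axis) on chromosomes 1, 2 and 3 for all LTRs (dark green), without the outer 100 kb and the centromere (light green), and without LTRs within 1 kb of a wtf mRNA (grey). Chromosome 3 is the highest in each of these counts, at 3.22, 3.11 and 2.24.

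Pairs of LTRs on the same strand whose starts lie 4 to 6 kb apart were taken as candidates for complete elements, and all other LTRs as solo. There were 25 such pairs with 47 LTRs (19.8%), which left 190 solo LTRs (80.2%). Pairs on opposite strands at the same distance, which cannot be the ends of an element, numbered 10. In 13 of the 25 same-strand pairs the mRNA of a Tf2 element lay between the LTRs with no other LTR in between. These 13 covered all 13 Tf2 mRNAs of the annotation, Tf2-1 to Tf2-13, of which Tf2-10 and Tf2-13 are listed as pseudogenes. The elements were nearly equal in size. Between the starts of both LTRs lay 4567 bp in 8 of 13 elements and 4565 to 4567 bp in 12, and Tf2-11 had 4512 bp. Its first LTR was annotated with 293 bp.

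Tf2-7 and Tf2-8 on chromosome 1 shared an LTR. Their LTRs start at 5190745, 5195312 and 5199879 on the minus strand, so 3 LTRs served 2 elements in tandem and the 13 elements had 25 LTRs in all. These LTRs were annotated with 362, 356 and 349 bp, but were identical wherever they aligned without a gap.

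The remaining 12 same-strand pairs, about as many as the 10 opposite-strand pairs, enclosed no Tf2 mRNA of their own. Of the 12, 2 with 100% identity came from a repeat near the left end of chromosome 2. There 4 LTRs of 344 bp with 1 sequence lay exactly 2759 bp apart (starts at 93517, 96276, 99035 and 101794), and the 3 units from the start of an LTR to the start of the next were identical base by base. Each unit carried a gene annotated as a predicted membrane transporter (SPBPB10D8.05c, SPBPB10D8.06c and SPBPB10D8.07c). The other 10 pairs had identities of 29.6% to 63.5% with gaps counted and of 72.5% to 90.9% without gaps. In pairs, unlike in the alignments to the representatives, unaligned ends counted as gaps, so LTRs of unequal length gave low values. The pair with 29.6% had LTRs of 269 and 89 bp. Of the 10 pairs, 9 enclosed 1 or 2 mRNAs unrelated to Tf2, among them wtf3 and wtf4 on chromosome 3.

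**Figure D3:**
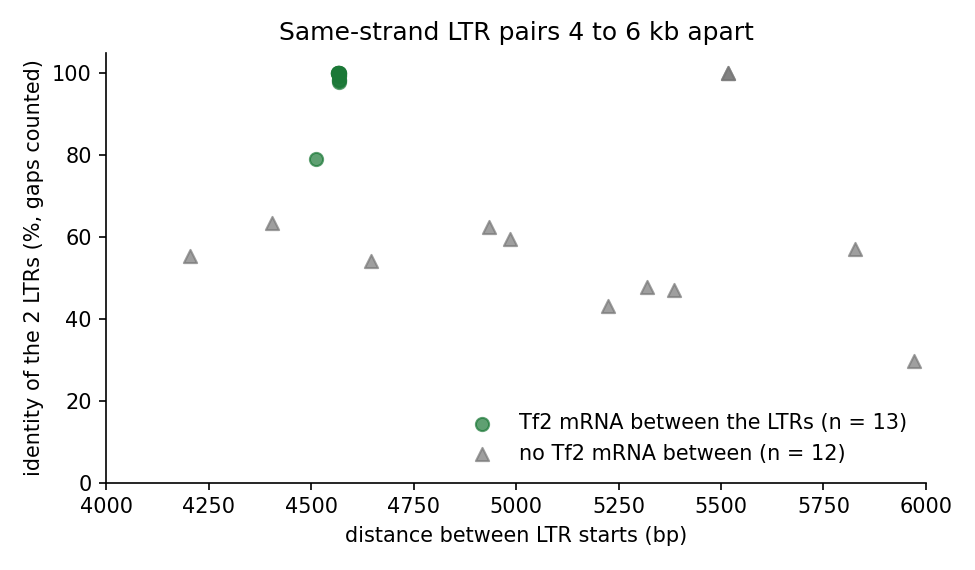
Identity of both LTRs of a same-strand pair (y axis, %, gaps counted) against the distance between their starts (x axis, bp). Green circles are the 13 pairs with a Tf2 mRNA and no other LTR between them. Grey triangles are the other 12 pairs. The circles lie together at 4565 to 4567 bp except Tf2-11 at 4512 bp and 79.1%, and the 2 overlapping triangles at 5518 bp and 100% are the repeated units of chromosome 2.

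The LTRs of an element were near copies of each other, and of the LTRs of other elements. The identity of both LTRs of an element had a median of 100%, with a range of 79.1% to 100% over 13 elements, and 7 elements had identical LTRs. Between LTRs of different elements the median over 287 comparisons was 99.7%, with a range of 76.6% to 100%, and 53 comparisons gave identical sequences. Among the LTRs of Tf2-1 there was 1 differing base and among those of Tf2-2 there were 2. The lowest value belonged to Tf2-11, whose first LTR was 82.5% identical to Tf1, the type with the better score, and 83.0% identical to Tf2. The 5 bases before its annotated start read TGTCA, the same 5 bases that open the Tf2-1 LTR, so the annotated start left them out. With gaps left out the LTRs of Tf2-11 were 94.9% identical, and those of Tf2-5, Tf2-7 and Tf2-8 were 100% identical.

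Most element LTRs fell into a few groups of identical sequence. The largest group had 12 LTRs of 349 bp on 3 chromosomes, 9 of them in elements and 3 solo (chr1:4941720, chr2:3489303 and chr3:1716281 are the solo starts). A second group had 7 LTRs, all in elements, and differed from the first by a single substitution, T271C, counted from 1 at the 5′ end of the LTR with the base of the largest group first. Another group had 3 LTRs, in Tf2-1 and Tf2-10, and differed from the largest by A296G. A group of 2 LTRs, one of Tf2-2 and a solo LTR at chr3:701782, carried A40C and A130T. A total of 30 LTRs had at least 1 identical copy, all closer to Tf2. No LTR closer to Tf1 had an identical copy.

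The sequence next to the elements carried the duplication that insertion leaves. The 5 bases before the first and after the last LTR base were compared on the plus strand, and they were the same in 10 of 13 elements. Over all positions of the 3 chromosomes, 5 bases were repeated after a stretch of 349 bp at 0.197% of positions. The examples of 3 elements are shown, each with 10 flanking bases, the 5 compared bases in capitals, and 10 bases of the LTR.
Tf2-1, left (chr1:1465317-1465341): agaagtgttcATTTCtgtcagcaat
Tf2-1, right (chr1:1470238-1470262): gtagcttacaATTTCatagaagtat
Tf2-4, left (chr1:3361133-3361157): atctagtctcTTAAGtgtaagctac
Tf2-4, right (chr1:3366053-3366077): attgctgacaTTAAGataactttta
Tf2-12, left (chr3:777719-777743): tgaaaactcaTTAAGtgtaagctac
Tf2-12, right (chr3:782640-782664): attgctgacaTTAAGttccttttaa
The 10 elements had 9 different flanking sequences, and Tf2-4 and Tf2-12 had the same 5 bases although they lie on different chromosomes. Tf2-11 had different bases on both sides. Those on its left were the TGTCA that the annotated start left out, so this comparison could not show a duplication. The LTR shared by Tf2-7 and Tf2-8 has no flank of its own on the side of the other element, and there the outer flanks of the tandem are the pair to compare. They were equal.
Tf2-7, left of the tandem (chr1:5190730-5190754): atctcggtcgATAAGtgtaagctac
Tf2-8, right of the tandem (chr1:5200218-5200242): attgctgacaATAAGtgatatagac

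Solo LTRs covered a wide range of sequence identity, from near copies of the 2 representatives to sequences that could hardly be aligned. Of the 190 solo LTRs, 44 (23.2%) were at least 95% identical to the closer representative, 14 were 90% to 95%, 21 were 80% to 90%, 44 were 70% to 80%, 59 were 60% to 70% and 8 were under 60%. The median was 74.8%. By contrast 24 of 25 element LTRs were at least 95% identical, with a median of 99.7%. As many solo LTRs were closer to Tf1 as to Tf2 (93 each), and those at least 95% identical numbered 19 for Tf1 and 25 for Tf2. The 157 solo LTRs in the inner parts of the chromosomes had 43 of the 44 near copies (27.4% of the 157). Of the 33 solo LTRs in the outer 100 kb, 1 (3.03%) was a near copy.

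**Figure D4:**
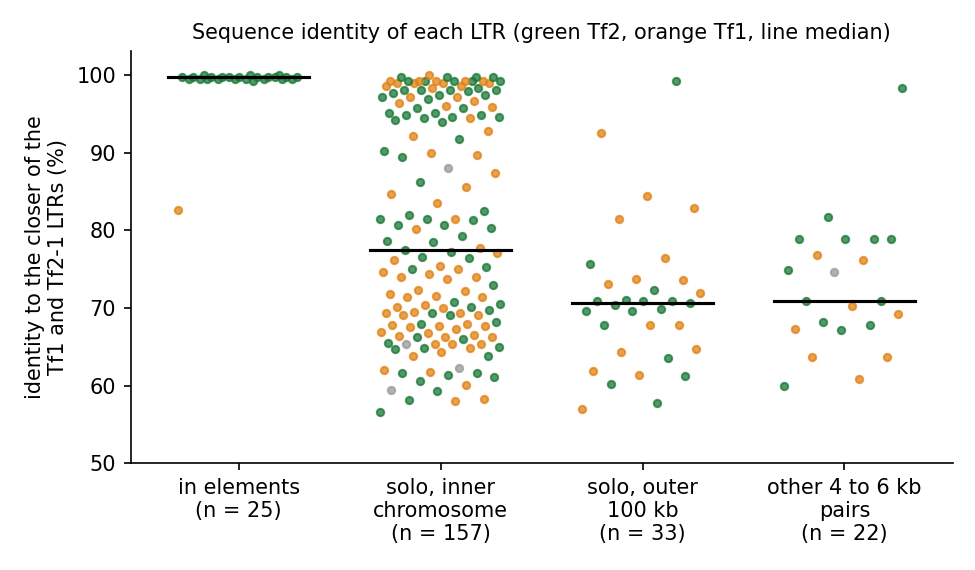
Identity of each LTR (points) to the closer of the Tf1 and Tf2-1 representatives (y axis, %), for LTRs in elements, solo LTRs in the inner chromosome, solo LTRs in the outer 100 kb and the other same-strand pairs (x axis, green Tf2, orange Tf1, grey equal score, black line median). The medians are 99.7%, 77.4%, 70.6% and 70.9%.

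Near copies among the solo LTRs also had their ends and flanks more often. Of 44 solo LTRs at least 95% identical, 34 began with TG and ended with CA at the annotated edges, and 24 (54.5%) had equal 5-base flanks. Of the 146 others, 34 had both ends and 13 (8.90%) had equal flanks. Of the 67 solo LTRs under 70% identity, 1 (1.49%) had equal flanks, against the 0.197% of all positions given above. That 1 LTR is the diverged LTR upstream of cam1+, which is described below.
Solo LTR of cam1+, left (chr1:1444278-1444302): gatatataagTTGAAtgtcgacaac
Solo LTR of cam1+, right (chr1:1444646-1444670): gtagctgacaTTGAAaaagttcctt

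The LTRs lay mostly between genes. Of 237 LTRs, 196 (82.7%) overlapped no annotated mRNA other than those of the Tf2 elements, whereas 12.6% of 125709 windows of 349 bp placed every 100 bp along the chromosomes did so. The other 41 LTRs overlapped such an mRNA, and in most of these the overlap was with an untranslated end: 26 LTRs overlapped a 5′ UTR, 15 a 3′ UTR and 1 a coding part. An mRNA start lay inside 25 LTRs and an mRNA end inside 13. No share of windows is given for these overlaps, so they are counts only and are not set against the genome. An annotated non-coding RNA (lines of type misc_RNA) overlapped 34 LTRs (14.3%), against 17.1% of all windows, most of which overlap an mRNA. The share for windows outside mRNAs is not given.

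Most LTRs lay close upstream of an mRNA start. Of all 237, 156 (65.8%) lay wholly upstream of an mRNA start and within 500 bp of it, against 19.1% of the windows. With the mRNAs of the Tf2 elements themselves left out, 150 did (63.3%). Since LTRs lie between genes, windows that overlap no mRNA are the closer comparison. Of these 48.5% lay within 500 bp upstream of a start, against 132 of 196 LTRs outside mRNAs (67.3%). In the inner parts of the chromosomes, without the outer 100 kb and the centromeres, the values were 73.5% of 155 LTRs and 59.1% of windows. Of the 126 solo LTRs among these 155, 80.2% lay within 500 bp upstream of a start. In the outer 100 kb 43.9% of 41 LTRs outside mRNAs did so, against 25.2% of windows. Of the element LTRs, 8 of 25 (32.0%) lay within 500 bp upstream of a start. Both LTRs of each element are counted here, with starts 4512 to 4567 bp apart. A gene start near one of them is therefore usually far from the other. This share is per LTR and not per insertion, so it cannot be set beside that of solo LTRs. LTRs closer to Tf1 (59.8% of 102) and to Tf2 (65.4% of 130) had similar shares when element LTRs were included. Most element LTRs were closer to Tf2, and shares by type without them are not given.

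The distances showed the same order. For the 196 LTRs outside mRNAs the median distance was 191.5 bp to the nearest mRNA start and 1048.5 bp to the nearest mRNA end, against 523 and 1553 bp for windows outside mRNAs. Within 100 bp of a start lay 35.2% of these LTRs and 14% of the windows, whereas within 100 bp of an mRNA end lay 7.14% and 6.58%. An mRNA start was nearer than an mRNA end for 152 of the 196 LTRs (77.6%) and for 67.8% of the windows. Gaps between genes differ in which ends face them, so the tandem gaps, which have an mRNA end on one side and a start on the other, were also counted alone. There the start was nearer for 59 of 96 LTRs (61.5%) and 50.2% of windows. Divergent gaps, with a start on both sides, held 93 LTRs (47.4% of those outside mRNAs, windows 43.7%), and convergent gaps, with an end on both sides, held 5 (2.55%, windows 5.17%). The LTR had the same strand as the gene downstream of it in 75 cases and the opposite strand in 75 of the 150 LTRs within 500 bp upstream of a start, so neither orientation was the more frequent. These 150 LTRs lay upstream of 145 different genes.

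**Figure D5:**
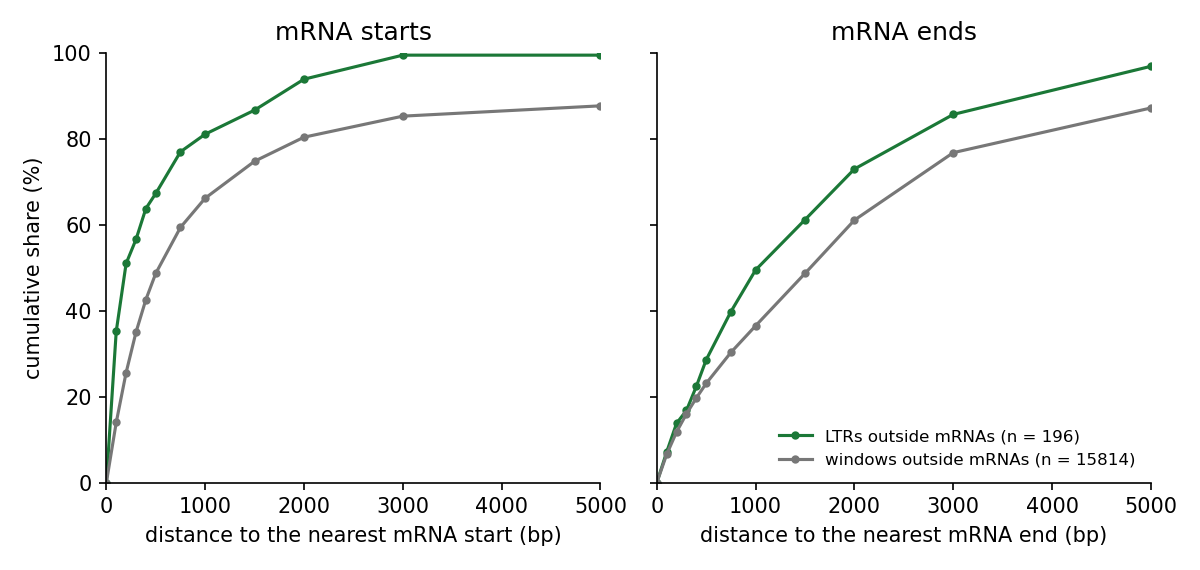
Cumulative share (y axis, %) of the 196 LTRs outside mRNAs (green) and of the 15814 windows of 349 bp outside mRNAs (grey) by distance in bp (x axis) to the nearest mRNA start (left) and the nearest mRNA end (right), with the Tf2 mRNAs left out. The LTRs lie above the windows near mRNA starts, with 35.2% against 14% within 100 bp, and close to them near mRNA ends, with 7.14% against 6.58%.

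The genes with the closest solo LTR upstream had various roles. The 10 named here are those whose LTR overlapped no mRNA at all. An LTR that overlapped the cwf18 mRNA on its other side (chr3:2405874-2406228) lay still closer, 2 bp before the start of SPCP1E11.08, a predicted ribosome biogenesis protein. The LTR at chr1:1444293-1444655 ended 3 bp before the mRNA start of cam1+, which encodes calmodulin, the calcium sensor of the cell. It was 69.1% identical to the Tf2 LTR. The LTR at chr2:4231522-4231869 ended 5 bp before SPBC16G5.10, a predicted subunit of the RNA-degrading exosome. On chromosome 3 the distance was 14 bp for coq3+, an enzyme of ubiquinone synthesis, and for SPCC1919.04, which has no assigned function, and 21 bp for nic1+, a heavy metal ion transporter. On chromosome 1 it was 22 bp for ddx27+, a predicted RNA helicase, 24 bp for mis4+, the cohesin loading factor, 25 bp for vps1+, a dynamin-like protein, and 28 bp for rpn501+, a proteasome subunit. At the same 28 bp lay the LTR of are2+ on chromosome 3, a predicted sterol acyltransferase, which is not counted among the 10. For raf2+ on chromosome 3, whose product acts with the H3K9 methyltransferase Clr4, it was 26 bp (chr3:500370-500717). That LTR was 60.1% identical to Tf1, within the range given by unrelated sequence. Of these 10 LTRs, 5 were closer to Tf1 and 5 to Tf2.

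Genes that the study names were compared with the LTR map as well, and this list was taken up after the map had been made. The nearest LTR of clr4+, which encodes the only H3K9 methyltransferase of this yeast, lay at chr2:458478-458824. It overlapped the first 10 bp of the clr4+ mRNA, which runs on the opposite strand, and began 431 bp upstream of the coding sequence. It was a diverged solo LTR of 347 bp (75% identical to Tf1), and none of its 298 sequences of 50 bases occurred again in the genome. Its last 60 bases are shown with capitals where they differ from the Tf1 representative.
LTR at clr4+, last 60 bases (chr2:458765-458824): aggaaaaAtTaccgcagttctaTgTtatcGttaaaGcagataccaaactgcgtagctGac
The marker gene ura4+ had an LTR 859 bp downstream of its mRNA (chr3:114382-114730). That LTR was a near copy of Tf2 (98.3%), with 230 of its 300 sequences of 50 bases found again. The file gives it on the plus strand, but its sequence fits Tf2 only in reverse (98.3% against 55.3%). Near leu1+ the LTR was the last one of Tf2-10, at 4601 bp, and near adh1+ it lay at 7109 bp. For the other 12 genes examined (swi6+, chp2+, cid14+, taz1+, tas3+, cnp1+, epe1+, emc5+, rad50+, tlh1+, tlh2+ and ade6+) the nearest LTR was between 11704 bp (tlh2+) and 132472 bp (emc5+) away.

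The wtf genes, a family concentrated on chromosome 3 and named for their company with Tf sequences, were looked at after the pairs had been seen. Several of them act as killers of spores that do not inherit them. Of 24 annotated wtf mRNAs, 22 were on chromosome 3. Within 1 kb of the mRNA lay an LTR for 20 of 24 (83.3%), against 6.77% of the 5142 mRNAs of all genes other than Tf2. The LTR lay within 100 bp for 11 of these 20, whose median distance was 73 bp. For the other four it was 2387 to 45442 bp, and over all 24 the median was 162 bp. It lay upstream for 16 and downstream for 10, and on both sides for 6 (wtf9, wtf13, wtf14, wtf16, wtf22 and wtf23). An LTR on both sides was found for 14 mRNAs (0.272%) in all. The others were the 3 transporter genes of the repeat on chromosome 2, atp25+, vps28+, mug135+, SPCC330.03c and SPCC1919.07. At wtf13 the LTRs lay 65 bp to the left (chr3:1579176-1579526) and 66 bp to the right (chr3:1581982-1582318) of the mRNA. The left one also ended 14 bp from the start of coq3+ mentioned above. In all 26 LTRs lay within 1 kb of a wtf mRNA, 24 of them on chromosome 3. Without them chromosome 3 had 2.24 LTRs per 100 kb, against 1.58 and 1.5 on chromosomes 1 and 2.

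LTRs were not found near tRNA genes more than elsewhere. An LTR lay within 1 kb of a tRNA gene in 6 of 237 cases (2.53%), against 2.56% of all windows, and the median distance was 47638 bp. For LTRs outside mRNAs the median distance was 59158 bp, against 38060.5 bp for windows outside mRNAs. These windows include the centromeres, where no LTR was annotated. The closest was a 268-bp LTR that began 4 bp after a valine tRNA gene (SPATRNAVAL.01, chr1:446000-446071), and it was 60.6% identical to Tf2, within the range given by unrelated sequence. The other five lay at 328 to 747 bp from tRNA genes for valine, proline, threonine, glycine and glutamine, and the one near the glycine gene was the LTR at ura4+.

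LTRs were also found close to each other. There were 19 clusters with neighbouring LTRs within 1 kb, which held 43 LTRs. The largest, at chr2:3489303-3490610, had 4 LTRs on the minus strand, and 15 of the 19 had 2 LTRs. In 7 cases neighbours overlapped, by 1 to 153 bp, and 5 of these 7 were on opposite strands. Some of the clusters lay in the outer 100 kb, where LTRs were denser and some lie in repeated segments. No share for other positions is given, so the number of clusters is a count only.

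Short sequencing reads can be placed at an LTR only where its sequence is unique. Of the positions in LTRs that begin a sequence of 50 bases, 43.5% had that sequence again elsewhere in the genome on either strand, against 4.09% over the 3 chromosomes. The share was 97.5% in element LTRs and 35.9% in solo LTRs. All such sequences were repeated in 47 LTRs and none in 98. Of LTRs closer to Tf2, 57.3% of positions were repeated, and of those closer to Tf1 26.8%. In element LTRs 23 of 25 had no unique sequence of this length.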

How the data were processed

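ChIP-seq libraries of swi6Δ cells (replicates 1 and 2) were made by the authors with an H3K9me2 antibody. Aligner and genome build were not given in the sources used here. The values are start and end positions in bp (1-based) in the GeneDB annotation that the authors deposited for the whole series. It holds no counts or signal of either library, so no depth, group or test applied.

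LTR lines were read with their strand and note. Full length was 300 to 400 bp, and a pair had starts 4000 to 6000 bp apart on 1 strand. Alignments (Biopython 1.88) scored 1 for a match, -1 for a mismatch, -2 to open and -0.5 to extend a gap. Windows of 349 bp began every 100 bp. Centromeres were the repeat features within 50000 bp of the central core. Sequences are from RefSeq ASM294v3. Repeat counts were tested on simulated sequence. Named LTRs and genes are those of the same-strand pairs, the longest and shortest LTRs, those nearest to each centromere and chromosome end, the first 10 genes by distance to a solo LTR that overlaps no mRNA (ties in chromosome order), and tRNA genes within 1000 bp. The members and lists were chosen with earlier results of these data known, and the flanks, the sequence types, the wtf genes, the tandem gaps and the inner windows were added after the positions had been seen. The alternatives were other length, distance and sequence limits, midpoints, coding starts and subsets of LTRs. Python 3.11.15, numpy 2.4.6 and matplotlib 3.10.9 were used.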

Additional observations from a re-analysis of the deposited data

How the results depend on the processing

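The number of LTRs was 230 with overlapping lines merged and 234 without those under 100 bp. The full-length share of 80.6% moved to 70.5% with limits of 330 to 380 bp and was 75.5% from 90% of the commonest length. The 25 same-strand pairs became 13 when a Tf2 mRNA and no other LTR were required between the LTRs, a count chosen after seeing the data. On opposite strands there were 10 pairs. The same-strand pairs were 19 with starts 4.5 to 5.5 kb apart, 25 with gaps of 4 to 6 kb, 17 with both LTRs of full length and 20 with no other LTR between. The share within 500 bp upstream of an mRNA start (65.8%) was 54.0% for 250 bp and 78.9% for 1000 bp, where all windows gave 9.94% and 36%. Outside mRNAs the contrast was smaller, with 54.6% of LTRs and 30.8% of windows for 250 bp and 80.6% and 64.8% for 1000 bp. It was 65.4% from LTR midpoints and 62.9% to the first coding base. The share within 1 kb of a tRNA gene (2.53%) was 1.27% for 500 bp and 2.53% for 2 kb, against 1.57% and 4.43% of windows. Repeated positions (43.5%) were 47.2% for 36 bases and 34.6% for 100 bases. No paired analysis was possible because the result comes from no test between samples. The precision is set by the annotation: an LTR that was not annotated is not counted, annotated edges can be off by several bases, and identities up to 65.1% cannot be told apart from unrelated sequence.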

Other observations

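The strand that the file gives for an LTR did not always fit its sequence. For 15 of 237 LTRs the reverse orientation aligned better to a Tf LTR, and 10 of them reached at least 70% in reverse (71.8% to 99.1%). Examples at over 95% are chr2:676281-676634, chr2:2380161-2380508, chr2:2425971-2426336, chr2:4296668-4297025, chr3:43111-43459 (the LTR upstream of nic1+) and chr3:114382-114730 (the LTR at ura4+). The RefSeq annotation gives the opposite strand for 5 LTRs at the same position, and all 5 were among these 10. With these 10 strands reversed, an alternative chosen after seeing the data, there were 24 same-strand pairs in place of 25, and the pair that contains the LTR at ura4+ was no longer one.

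Near copies of a Tf LTR made up different shares of the LTRs of each chromosome. At least 95% identity was reached by 32 of 89 LTRs on chromosome 1 (36%), 14 of 69 on chromosome 2 (20.3%) and 23 of 79 on chromosome 3 (29.1%). These shares include the element LTRs, which numbered 15, 6 and 4 on chromosomes 1, 2 and 3. Of the 25 element LTRs, 24 reached 95%, so the shares do not rank the chromosomes by their solo LTRs. With element LTRs included in the same way, chromosome 3, with the highest density of LTRs, had the lowest median identity (74.6%, against 77.4% and 78.9% on chromosomes 1 and 2).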
